A study of Homo sapiens with 4 samples.

Results

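CFLAR, APAF1, XIAP and 5 caspases (CASP2, CASP6, CASP8, CASP9 and CASP10) are 8 genes of the machinery that starts, carries out or holds back apoptosis, and they were examined in MOLM-14 leukemia cells given the drug DZNep. Members were the probe sets whose annotation gives exactly 1 gene symbol and where that symbol is one of the 8. All 8 genes were measured, with 9 probe sets, among 18377 genes and 28869 probe sets in all. CFLAR has 2 probe sets and each of the others has 1, and the main one of a gene is that with the highest mean log2 intensity over the 4 arrays.

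MOLM-14 is a human cell line of acute myeloid leukemia whose cells resemble monocytes. The series holds 2 arrays of cells treated with DZNep at 2 µM for 24 h and 2 arrays of cells treated with the solvent DMSO for 24 h, all on an Affymetrix whole-transcript array. DZNep (3-deazaneplanocin A) blocks S-adenosylhomocysteine hydrolase and thereby methyltransferases that use S-adenosylmethionine, and it is used to deplete EZH2, the histone methyltransferase of Polycomb repressive complex 2. The labels call the arrays of a group biological replicates but name no separate cultures. The p-values therefore cover the spread among these arrays alone, and that spread may be technical. Over all genes, log2 differences had an SD of 0.14 between the DZNep arrays and 0.20 between the DMSO arrays. As a model, the series is 1 cell line at 1 dose and 1 time. RNA came from whole cultures, so fewer cells of a type and less RNA per cell cannot be told apart.

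Caspases are cysteine proteases made as inactive precursors. In the extrinsic route, death receptors recruit the adaptor FADD and the initiators caspase-8 and caspase-10, and CFLAR (c-FLIP), a caspase-8 relative without protease activity, joins the same complex and limits or shapes its activation. In the intrinsic route, cytochrome c released from mitochondria assembles APAF1 into the apoptosome, which activates caspase-9. Both routes end in executioner caspases, and XIAP binds and blocks caspase-9 and the executioners. Caspases are regulated mostly as proteins, so transcript levels describe supply and not activity.

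With DZNep, 2 of the 8 genes rose and none fell. CFLAR was 2.05-fold higher and APAF1 1.41-fold higher than with DMSO, while the 5 caspases and XIAP did not pass the test, with log2 fold changes from −0.20 for XIAP to 0.29 for CASP6. The threshold was an adjusted p of 0.05 in limma, with Benjamini-Hochberg adjustment over all 18377 genes. By the same rule, 10.3% of all genes were called, 3.62% as higher and 6.68% as lower with DZNep. At an unadjusted p under 0.05, 3 of the 8 were higher (CFLAR, APAF1 and CASP6) and 0 were lower, where 9.43% of all genes were higher and 12.7% lower at that p. Over the 8 genes the median log2 fold change was 0.20, against 0.02 over all genes. Both DZNep arrays lay above both DMSO arrays for 4 of the 8 genes (CFLAR, APAF1, CASP6 and CASP9) and below them for none. Over all genes the groups did not overlap for 49.7%, 25.9% upward and 23.9% downward.

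**Figure D1:**
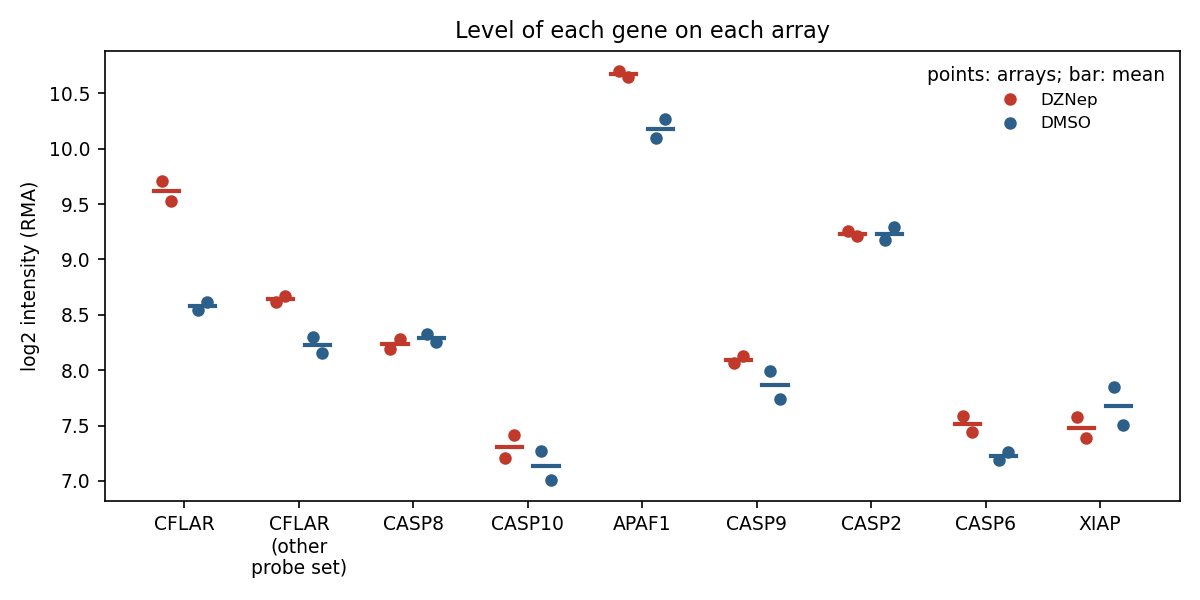
Log2 intensity of the 9 probe sets (y axis) on each array, with DZNep arrays as red points, DMSO arrays as blue points and a bar at each group's mean (2 arrays each). The DZNep points stand above the DMSO points for both CFLAR probe sets, APAF1, CASP9 and CASP6, and the points of CASP8, CASP10, CASP2 and XIAP overlap between the groups.

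RefSeq windows around the starts of 7 of the 8 genes were available (16 windows, GRCh38.p14, as a gene can have several starts). The 250 bases before a start are shown for the 2 genes that rose and for CASP8, a neighbour of CFLAR in the same complex that did not pass the test. Each reads 5′ to 3′ on the gene's strand, and capitals mark GC boxes (GGGCGG) and CCAAT boxes (CCAAT), as well as matches to the NF-κB consensus, on either strand. For CFLAR and CASP8 the first of several starts in the table is shown.
CFLAR, chr2:201118466-201118715, plus strand: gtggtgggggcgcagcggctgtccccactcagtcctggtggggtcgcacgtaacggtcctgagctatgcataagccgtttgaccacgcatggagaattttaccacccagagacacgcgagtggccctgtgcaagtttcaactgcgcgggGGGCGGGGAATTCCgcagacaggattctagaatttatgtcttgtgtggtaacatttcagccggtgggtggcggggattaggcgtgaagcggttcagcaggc
APAF1, chr12:98645040-98645289, plus strand: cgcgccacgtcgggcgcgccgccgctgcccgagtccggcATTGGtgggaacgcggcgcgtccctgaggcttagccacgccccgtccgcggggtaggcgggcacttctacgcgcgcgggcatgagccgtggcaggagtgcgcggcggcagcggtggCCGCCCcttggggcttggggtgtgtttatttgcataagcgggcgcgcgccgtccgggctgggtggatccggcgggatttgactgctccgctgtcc
CASP8, chr2:201233213-201233462, plus strand: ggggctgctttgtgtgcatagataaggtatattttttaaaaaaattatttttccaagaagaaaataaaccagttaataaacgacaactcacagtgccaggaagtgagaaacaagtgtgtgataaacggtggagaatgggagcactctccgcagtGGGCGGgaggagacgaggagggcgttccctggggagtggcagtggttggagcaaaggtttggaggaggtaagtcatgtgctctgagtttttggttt
The APAF1 window held 38 CpG dinucleotides, the CFLAR window 17 and the CASP8 window 6, where the median over all 35116 windows in the table was 11 (quartiles 3 and 23). The other 3 CFLAR windows held 0, 0 and 22. A GC box stood once in each of the 3 printed windows and in 42.6% of all windows, and a CCAAT box stood only in that of APAF1 among the 3, against 32.0% of all windows. The CFLAR window held 1 match to the NF-κB consensus, which overlaps its GC box by 2 bases, and 9.96% of all windows hold one. The other 3 CFLAR windows held 0 matches to it. A window of CASP2, which did not pass the test, also held 1. The windows shown held none of the letters searched for E2F (TTTGGCGC and TTTCGCGC, 0.968% of all windows), AP-1 (TGACTCA, 4.20%) or CRE (TGACGTCA, 1.65%), each read on both strands. These matches describe the letters of the windows only.

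At the death receptor complex, only CFLAR among its 3 members here passed the test. Its main probe set had log2 intensities of 9.71 and 9.52 on the DZNep arrays, against 8.54 and 8.62 on the DMSO arrays. Both DZNep arrays were high, and the gap between the groups was several times the gap within either. The means were 9.62 ± 0.13 with DZNep and 8.58 ± 0.05 with DMSO (SD, n = 2 arrays each), a log2 fold change of 1.04 (SE 0.10, 95% interval 0.80 to 1.27, limma adjusted p = 0.000413). It ranked 55 among the 18377 genes by size of rise. In linear intensity the values were 837 and 736 with DZNep, against 373 and 393 with DMSO.

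The other CFLAR probe set had a smaller difference, which did not pass the test. It read 8.61 and 8.67 with DZNep, against 8.30 and 8.16 with DMSO, so here too the groups did not overlap. In a fit of all 28869 probe sets, where 5.22% were called, its change was 0.41 on the log2 scale (SE 0.09, limma adjusted p = 0.0602), and that of the main probe set was 1.04 (limma adjusted p = 0.0053). The annotation ties the main probe set to 7 RefSeq mRNAs of CFLAR and the other to 1, with 0 shared between them. CFLAR is known to make long and short protein forms, and the files do not pair the probe sets with these. The main probe set changed by 0.62 more than the other within arrays (SD 0.17 among DZNep and 0.15 among DMSO arrays), and an exact permutation test gave p = 0.333, the smallest that 2 against 2 arrays allow. Averaged over both probe sets, CFLAR changed by 0.73 on the log2 scale (limma adjusted p = 0.00145). In alternatives that kept every array, other than the replicate block, its limma adjusted p ran from 3.11e-06 (robust intensity trend) to 0.0053 (every probe set tested). The replicate block gave 5.76e-13, but there every member had the same SE of 0.13, against 0.10 for CFLAR in the main fit. The spread of each member thus did not enter that SE, and this p-value is not read as stronger evidence.

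CASP8 and CASP10 encode the initiator proteases of the same complex. CASP8 read 8.19 and 8.28 with DZNep, against 8.33 and 8.25 with DMSO. CASP10 read 7.20 and 7.41 with DZNep, against 7.27 and 7.01 with DMSO. The arrays of the groups overlapped for both genes. The log2 fold change of CASP8 was −0.06 (95% interval −0.27 to 0.16, limma adjusted p = 0.819), so a change as large as that of CFLAR lay outside its interval. For CASP10 it was 0.17 (95% interval −0.10 to 0.44, limma adjusted p = 0.497), and it moved to 0.27 without DZNep replicate 1, 0.07 without DZNep replicate 2, 0.30 without DMSO replicate 1 and 0.04 without DMSO replicate 2.

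The change of CFLAR exceeded that of CASP8 by 1.09 and that of CASP10 by 0.87 on the log2 scale. In both cases the DZNep arrays did not overlap the DMSO arrays, with an exact permutation p of 0.333 each, the smallest possible here. These belong to 4 such differences that were computed, so none could pass a correction.

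CFLAR, CASP10 and CASP8 lie next to one another on chromosome 2 and are structurally related. Of the 10 measured genes nearest to CFLAR in chromosome order, 5 on each side, 0 passed the test in limma and 1, HYCC2, had an unadjusted p under 0.05. Their log2 fold changes went from −0.22 for STRADB, a pseudokinase that activates LKB1, to 0.33 for HYCC2, a lipid kinase cofactor (limma adjusted p = 0.0671), with a median of 0.02. The number of neighbours was chosen after their values were seen. CFLAR was already known to pass when it was taken as the centre, so it does not count towards a rate for the locus. A count of 0 calls among 10 neighbours is too small to set against the 10.3% called over all genes, so nothing about the locus is read from it.

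**Figure D2:**
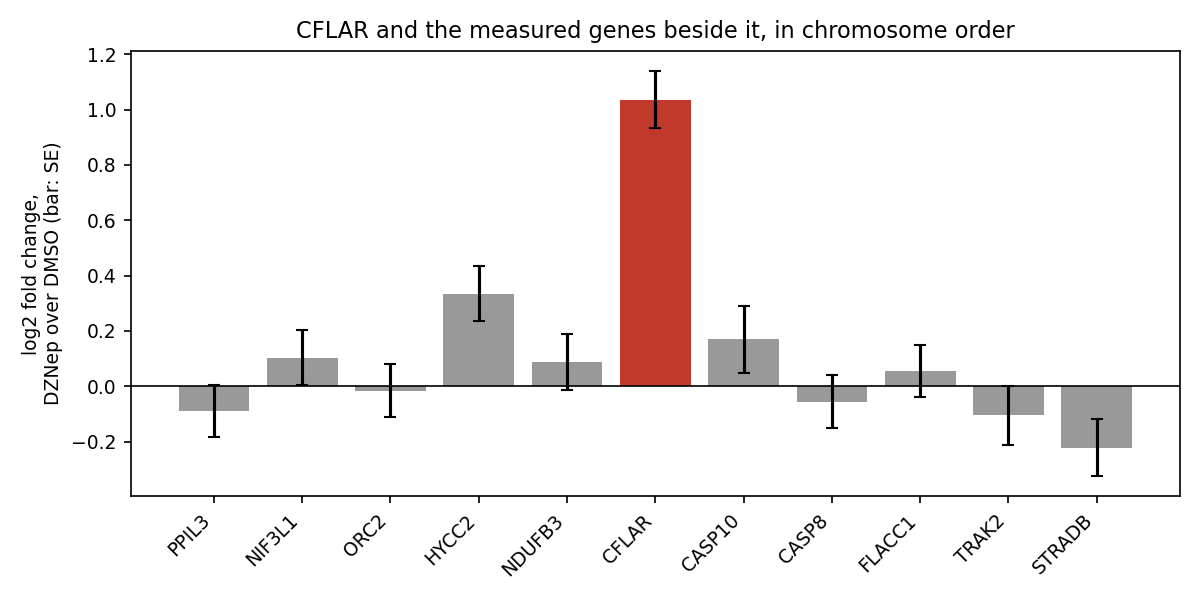
Log2 fold change, DZNep over DMSO (y axis), of CFLAR and the 5 nearest measured genes on either side in chromosome order, with error bars of 1 SE from limma. CFLAR stands at 1.04 and its 10 neighbours between −0.22 and 0.33.

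At the apoptosome, APAF1 rose and CASP9 did not pass the test. APAF1, the scaffold that cytochrome c assembles, read 10.70 and 10.65 with DZNep, against 10.10 and 10.27 with DMSO. The DZNep arrays were both above the DMSO arrays, and the DMSO arrays differed more from each other than the DZNep arrays did. The means were 10.67 ± 0.04 with DZNep and 10.18 ± 0.12 with DMSO (SD, n = 2 arrays each), a log2 fold change of 0.49 (SE 0.10, 95% interval 0.26 to 0.72, limma adjusted p = 0.0148). Without DZNep replicate 1 the value was 0.46 and the call ended, in a fit where every member had the same SE of 0.17. In alternatives that kept every array, its limma adjusted p ran from 0.000406 (robust intensity trend) to 0.0439 (16 subtracted).

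CASP9, the protease that the apoptosome activates, read 8.06 and 8.12 with DZNep, against 7.99 and 7.74 with DMSO. The groups did not overlap, but the DMSO arrays lay 0.25 apart, more than the mean difference of 0.23 (95% interval −0.02 to 0.48, limma adjusted p = 0.268). Its value depended on which DMSO array was used, at 0.36 without DMSO replicate 1 and 0.10 without DMSO replicate 2. APAF1 changed by 0.26 more than CASP9, with overlapping arrays and an exact permutation p of 0.667.

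CASP2, a nuclear and cytosolic initiator activated through the adaptors PIDD1 and CRADD, was the member with the smallest difference. It read 9.25 and 9.21 with DZNep, against 9.17 and 9.29 with DMSO, with the DZNep arrays between the DMSO arrays. The log2 fold change was −0.0019 (95% interval −0.22 to 0.22, limma adjusted p = 0.994), and its sign turned under quantile (0.049) and cyclic loess (0.027) normalization.

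CASP6, an executioner-class caspase that cleaves nuclear lamin A, read 7.58 and 7.44 with DZNep, against 7.19 and 7.26 with DMSO. Both DZNep arrays were the higher ones. Its log2 fold change was 0.29 (SE 0.10, 95% interval 0.07 to 0.51 for this gene alone), which missed the threshold after adjustment over all genes (limma adjusted p = 0.108).

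XIAP, the inhibitor of caspase-9 and the executioners, read 7.57 and 7.38 with DZNep, against 7.85 and 7.50 with DMSO. The groups overlapped, since DZNep replicate 1 lay above DMSO replicate 2. The log2 fold change was −0.20 (SE 0.13, 95% interval −0.49 to 0.10, limma adjusted p = 0.45), and XIAP had the widest gap between the DMSO arrays of the 8 genes, at 0.35. The value moved with each array left out, to −0.29 without DZNep replicate 1, −0.10 without DZNep replicate 2, −0.03 without DMSO replicate 1 and −0.37 without DMSO replicate 2.

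**Figure D3:**
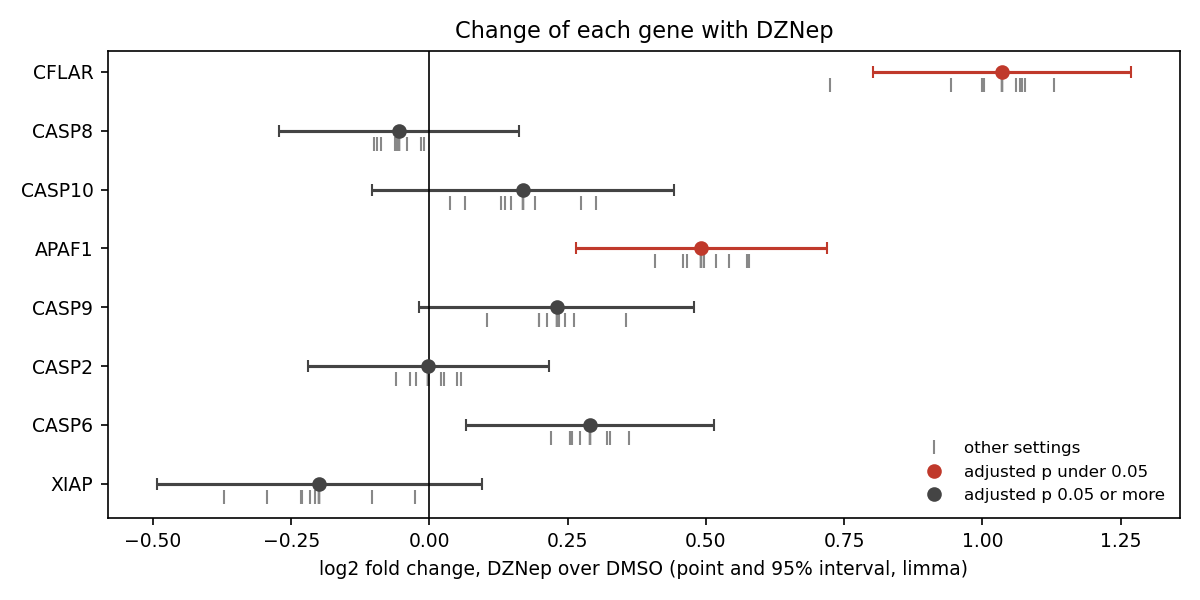
Log2 fold change of the 8 genes, DZNep over DMSO (x axis), with points for the limma estimate, bars for the unadjusted 95% interval and grey ticks for the values under the alternative settings. CFLAR and APAF1 (red) have intervals above 0 and passed the adjusted test, CASP6 has an interval above 0 and an adjusted p of 0.108, and the intervals of the other 5 genes include 0.

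Other genes of the pathway were read from 6 lists by role, with 43 measured genes. Other genes of these lists were not analysed here. Of the 43, 3 rose and 0 fell (limma), where 3.62% of all genes were called higher and 6.68% lower. At an unadjusted p under 0.05, 7 were higher and 5 lower (9.43% and 12.7% of all genes). The median log2 fold change was 0.04. The 3 that rose came from 3 lists, and no list held more than 1. Such a count in 1 list is too small to set against the shares of all genes.

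Of 9 death receptors and ligands, 1 rose and 0 fell, with a median of 0.06. It was TNF, the ligand of the TNF receptors, at 9.45 and 9.26 with DZNep, against 7.23 and 7.45 with DMSO (log2 fold change 2.02, limma adjusted p = 3.21e-05). Its receptor TNFRSF1A had 0.06, and the death receptors FAS, TNFRSF10A and TNFRSF10B had 0.04, −0.08 and −0.19, none past the test.

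Of 6 adaptors, 1 rose and 0 fell, with a median of 0.14. CRADD (RAIDD), which links PIDD1 to caspase-2, read 7.87 and 7.88 with DZNep, against 7.45 and 7.49 with DMSO (log2 fold change 0.40, SE 0.09, limma adjusted p = 0.0246). Its log2 fold change was 0.40 without DZNep replicate 1, 0.40 without DZNep replicate 2 and 0.39 without DMSO replicate 1. The call ended in each of these fits, and those without a DZNep array gave every member the same SE. In alternatives that kept every array, its limma adjusted p ran from 0.00843 (without the dimmest 50% of genes) to 0.05003 (16 subtracted from every intensity), the latter above the threshold. FADD, the adaptor of CASP8, CASP10 and CFLAR, had −0.09 (limma adjusted p = 0.678), and PIDD1 had 0.12 (limma adjusted p = 0.55).

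Of 12 caspase substrates, 1 rose and 0 fell, with a median of −0.01. At an unadjusted p under 0.05, 1 was higher and 2 were lower, counts too small to set against the shares of all genes. The substrate that rose was LMNA, the nuclear lamin A gene and a target of caspase-6, at 8.64 and 8.86 with DZNep, against 8.03 and 8.03 with DMSO (log2 fold change 0.72, SE 0.11, limma adjusted p = 0.00294). The other lamin in the list, LMNB1, had −0.22 (limma adjusted p = 0.274), and BID, which caspase-8 cuts to engage mitochondria, had 0.18 (limma adjusted p = 0.414). The lowest values were those of GSDME at −0.34 (limma adjusted p = 0.107) and PAK2 at −0.32 (limma adjusted p = 0.0636). The limma adjusted p of PAK2 was under 0.05 with an intensity trend (0.0101), among others. It was above 0.05 with quantile (0.0869) or cyclic loess (0.0689) normalization, among others.

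In 3 lists no gene passed the test in limma. Among 5 other caspases, 1 was lower at an unadjusted p under 0.05, CASP4, an inflammatory caspase that senses bacterial lipopolysaccharide, at 8.82 and 8.71 with DZNep, against 9.30 and 9.05 with DMSO. Its log2 fold change of −0.40 missed the threshold (limma adjusted p = 0.0527), but this depended on the setting. The limma adjusted p of CASP4 was under 0.05 with quantile (0.0456) or cyclic loess (0.0462) normalization. The same held with array weights (0.044), an intensity trend (0.0143) and without the dimmest 25% of genes (0.0368). It was above 0.05 with median centring (0.0505), 16 subtracted (0.105), averaged probe sets (0.0518) and every probe set tested (0.108). Among 6 mitochondrial activators and antagonists of the inhibitors, 1 was higher and 2 lower at that unadjusted p, counts too small to set against the shares of all genes. The largest value was that of XAF1, an antagonist of XIAP, at 0.34 (limma adjusted p = 0.057). The limma adjusted p of XAF1 was under 0.05 with quantile (0.016) or cyclic loess (0.0238) normalization and an intensity trend (0.00765), among others. It was above 0.05 with median centring (0.113), 16 subtracted (0.115) and array weights (0.0566), among others. CYCS, the cytochrome c that APAF1 binds, had 0.22 (limma adjusted p = 0.286), and DIABLO, which frees caspases from XIAP, had −0.23 (limma adjusted p = 0.216). Among 5 other inhibitor of apoptosis proteins, 1 was higher at an unadjusted p under 0.05. The largest value was that of BIRC2 (cIAP1), a ubiquitin ligase of TNF receptor complexes, at 0.28 (limma adjusted p = 0.139).

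**Figure D4:**
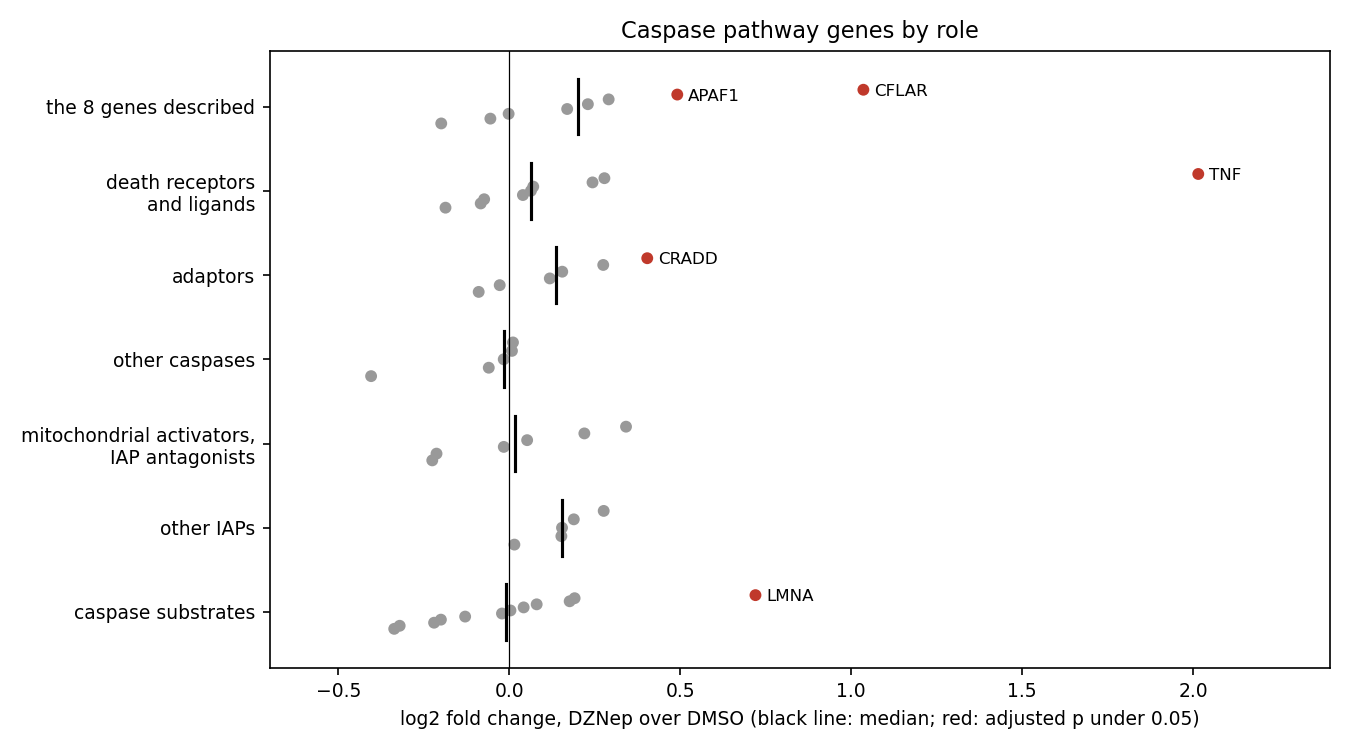
Log2 fold change, DZNep over DMSO (x axis), of the 8 genes and of 43 other pathway genes in 6 lists by role, with a black line at each median and red points for genes past the adjusted p of 0.05. CFLAR, APAF1, TNF, CRADD and LMNA are red, and the medians lie between −0.02 and 0.20.

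The genes with the most similar pattern to CFLAR and APAF1 were found by the Euclidean distance between log2 values over the 4 arrays, each centred on the gene's own mean. For CFLAR they were H2AC17, a histone H2A gene, at a distance of 0.13 (log2 fold change 0.93), and POLR1F, a subunit of RNA polymerase I, also at 0.13 (log2 fold change 1.03). For APAF1 they were EID1, an inhibitor of histone acetyltransferase activity, at 0.030 (log2 fold change 0.49), and CHST2, a sulfotransferase, at 0.031 (log2 fold change 0.48). With 4 arrays in 2 groups, this measure mainly finds genes of equal change.

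The samples were read against marker lists for the labelled cell type. Of 10 measured myeloid markers, LYZ, PTPRC and FLT3 lay at percentiles 99.8, 97.7 and 99.2 of mean intensity over all genes and CD14 at 36.9, while the 5 T cell markers lay between percentiles 16.4 and 36.1. The ranges of the other lists overlapped that of the myeloid markers, at 7.86 to 54.7 for B cell, 19.9 to 62.6 for erythroid and 8.95 to 80.9 for epithelial and fibroblast markers. Intensity also depends on the probes, so these percentiles do not show which markers are absent. Among the myeloid markers LYZ and CSF1R rose and FLT3 fell, and of the 10, 7 had a log2 fold change above 0 and 3 below. The log2 of the summed intensity of all 10 was 13.84 and 13.80 with DZNep, against 13.72 and 13.71 with DMSO. That sum leans on LYZ, the brightest, which alone read 12.82 and 12.72 with DZNep, against 12.15 and 12.32 with DMSO. The part of the myeloid markers in the changes of CFLAR and APAF1 was not tested. Of the 18 measured T cell, B cell, erythroid, epithelial and fibroblast markers, 1 rose, the fibroblast gene DCN, whose mean intensity lay at percentile 8.95.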

How the data were processed

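Expression was measured on 4 arrays, 2 with DZNep and 2 with DMSO, grouped by the sample titles. The deposited table holds 1 intensity per probe set on a linear scale. The authors made these intensities with RMA, as the submitters' processing notes record. Its version, the genome build and whether a constant was added were not given in the sources used here. Values ran from about 18 to 16502. Such a floor can shrink the folds of dim genes. The number of arrays limits the precision.

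Log2 was taken with no pseudocount. Probe sets with 1 symbol in the platform annotation (19310 of 28869, while 1752 have several and 7807 none) were kept, the brightest per gene, and 19279 matched RefSeq by entrez ID. The test was limma's (version 3.58.1, R 4.3.3, with lmFit, eBayes and group only, two-sided, 2 residual and 7.18 prior degrees of freedom). On simulated data with 200 of 18377 genes changed, it recovered 99.2% of log2 changes of 1 but only 29.3% of those of 0.5. The real data had 1892 genes called, which sets another cut-off, so these shares need not hold here. A gene that did not pass may still have changed. For the 6 members that did not pass, the unadjusted 95% intervals bound the change, and only that of CASP6 reached 0.5 in size. Exact permutation tests used scipy 1.17.1. With 2 against 2 arrays they cannot go below 0.333.

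The members, lists and tests were chosen with earlier results of these data known. Named were all members, up to 3 called genes of each pathway list (or the 1 with the largest change), and the 2 genes most like each called member. Other genes named with values were chosen for their role or their change, with the values known. Alternatives covered scaling, a floor, filters, the variance model, array weights, probe sets, a replicate block and leaving out each array.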

Additional observations from a re-analysis of the deposited data

How the results depend on the processing

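The call of CFLAR as higher held in all 17 alternatives (log2 fold change 0.73 to 1.13). That of APAF1 held in 16 (0.41 to 0.58), and ended without DZNep replicate 1, where 1 member was called higher. The count of members called higher was 1 to 2 when an array was left out, and 2 under every other alternative. The other 6 members passed in none, although CASP6 and CASP10 were removed with the dimmest 50% of genes. CASP2 turned sign under quantile (0.049) and cyclic loess (0.027) normalization, and its values lay between −0.060 and 0.057 when 1 array was left out.

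The samples of a number share only that number, since the labels give no litter, batch or day. Deviations of same-numbered arrays from their group means correlated at −0.22 over 18377 genes. With the replicate block, 754 genes were higher and 1353 lower, 2 members were higher and 1 pathway gene lower. In that fit every member had the same SE of 0.13, so the spread of each member did not enter it. A crossed block, added after seeing the data, gave 1034 higher genes and 3 lower pathway genes.

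Over all genes, 388 of the main probe sets were higher and 779 lower when every probe set was tested, which changes both the adjustment and the pooled spread. Leaving out an array gave 336 to 776 higher and 734 to 1662 lower genes. For the 43 pathway genes, the count called higher was 5 under quantile normalization and without the dimmest 50%, against 3. It was 4 under cyclic loess normalization, an intensity trend (with or without robust hyperparameters), the crossed block and without the dimmest 25%. With 16 subtracted it was 2. The count called lower, 0 in the report, was 1 under quantile or cyclic loess normalization and array weights, 2 with an intensity trend (with or without robust hyperparameters) and without the dimmest 25% or 50% of genes, and 0 to 3 when an array was left out. The causes were not tested. Where a DMSO array is left out, the lone DMSO array is taken to have the spread of the DZNep arrays. Where a DZNep array is left out, every member had the same SE of 0.17. The spread of each member thus did not enter those fits, and calls that ended or held there carry this limit.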
